A study of Mus musculus with 2 samples.

Results

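The serotonin receptor genes described here are 10 genes that encode receptors coupled to G proteins, namely Htr1a, Htr1b, Htr1f, Htr2a, Htr2c, Htr4, Htr5a, Htr5b, Htr6 and Htr7. They were chosen by name, as the genes whose RefSeq accession stands on a probe of the array, out of 20660 genes named on it. Htr3a and Htr3b, which encode subunits of the serotonin-gated ion channel, were left out because they neighbour Il18 on the chromosome. RNA came from male C57Bl/6 N mice aged 12 weeks that were either Il18+/+, the wild type, or Il18-/-, which lack the cytokine interleukin-18. Per the labels, RNA of 7 mice was pooled for each genotype, and each pool was hybridised to 1 one-colour array, so that each genotype is 1 sample. The sample labels name the hippocampus, while the extraction protocol and a part of the design text name the prefrontal cortex.

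Serotonin is released in the forebrain by axons of neurons whose cell bodies lie in the raphe nuclei of the brainstem. Messenger RNA for the receptors is made by the cells that receive the signal, so a forebrain sample reads the receptors of local neurons and of the choroid plexus, not those of the raphe cells. Receptors of the first family act through Gi/o proteins and restrain their cell, those of the second family act through Gq and phospholipase C, and the receptors encoded by Htr4, Htr6 and Htr7 act through Gs and cyclic AMP.

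A level below is the log2 processed intensity of a probe relative to the 75th percentile of its array, and a difference is Il18-/- minus Il18+/+ on the same scale. A probe was measured when the scanner software called it well above background on both arrays. Each genotype being a single pool on a single array, the differences could not be tested or checked in replicates, and the precision is limited by the number of arrays. The error given after ± is the scanner software's error of the spots, carried over to the difference. It covers reading 1 spot on each array and not the spread between mice or pools. Its lowest value was 10% of a spot's signal, close to that of bright spots, and it can exceed the spread of repeated spots. Since probes differ in how well they bind, levels of different probes are not set against each other. In whole tissue, fewer cells of a type and less RNA per cell cannot be told apart.

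Of all probes, 67.2% (Il18+/+) and 65.4% (Il18-/-) were well above background, and 15737 named genes were measured. The probe for Il18 itself read a level of 1.37 in Il18+/+ and -0.12 in Il18-/-, which is 2.80-fold lower, and where it lies relative to the deleted part is not known here. Probes repeated at least 10 times gave the spread of a single spot's difference. Its median standard deviation was 0.07 over 150 probes at levels of -2 or above, with a 95th percentile of 0.14, and 0.18 over 43 probes below -2, with a 95th percentile of 0.43. Markers of the dentate gyrus and of fields CA1 to CA3 were measured in 8 of 8 and 8 of 8 cases, and those of neocortical layers in 9 of 9, so these markers do not settle the conflict between the labels. Scaling to the spike-in controls, RNAs added in fixed amounts, was tried as an alternative. With it every difference was lower by 0.31 and the median over all genes moved from 0.01 to -0.30.

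Messenger RNA of Htr2c was 1.83-fold lower in the Il18-/- pool and that of Htr1f was 1.52-fold lower. Htr4, Htr5b, Htr6 and Htr7 differed by less than the scanner software's error. Htr1a and Htr2a lay between, at 1.36-fold and 1.30-fold lower. At 0.10 and 0.08, Htr5b and Htr4 were above the 0.07 median standard deviation of repeated spots at such levels, and under its 95th percentile of 0.14. Htr1b and Htr5a were not well above background on either array and have no difference. Of the 8 measured genes 5 were lower and 3 higher, with a median difference of -0.24, against a median of 0.01 over all measured genes, of which 47.4% were lower. At 1.5-fold or more, 2 of the 8 were lower, while 2.57% of all measured genes were, and 0 of the 8 were higher, while 1.68% of all were. Among genes with a mean level below -2, where Htr1a, Htr1f and Htr6 lie, 6.99% were at least 1.5-fold lower. The 10 genes were read by 13 probes, of 1 spot each, and 9 of these probes were measured.

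**Figure D1:**
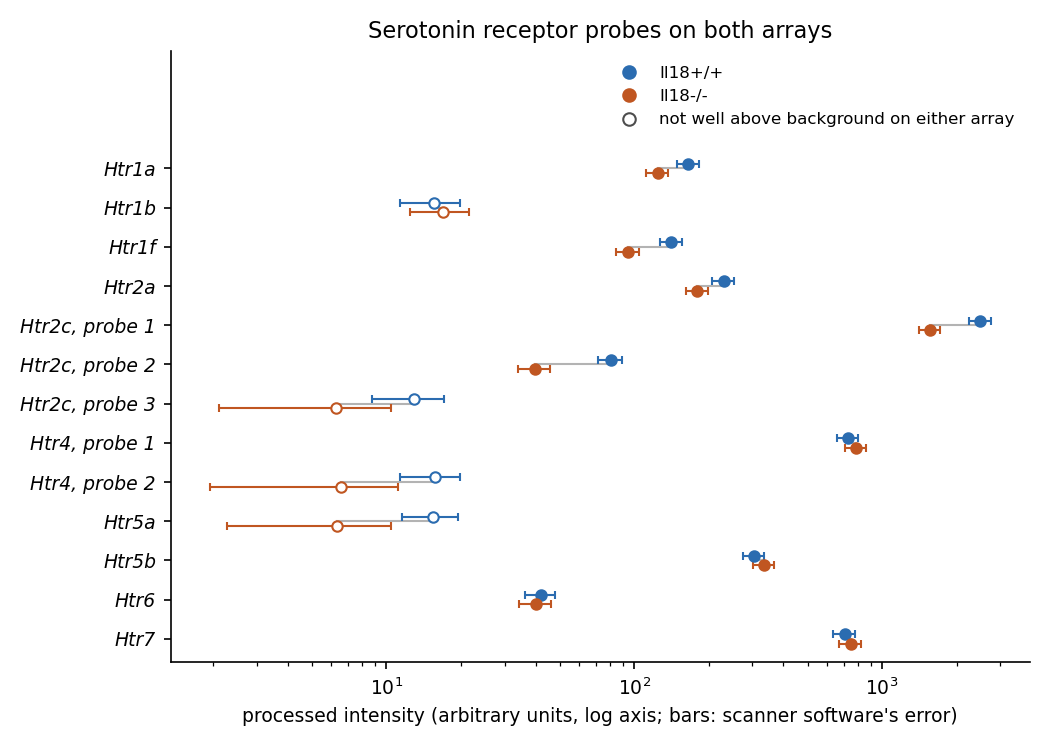
Processed intensity of the 13 serotonin receptor probes on a log axis, with the Il18+/+ array in blue, the Il18-/- array in orange and bars for the scanner software's error. Open points mark the 4 probes that were not well above background on either array. The measured probes for Htr2c, Htr1f, Htr1a and Htr2a sit lower in Il18-/-, and those for Htr4, Htr5b and Htr7 sit almost on top of each other.

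Htr2c encodes the Gq-coupled receptor that is most abundant in the epithelium of the choroid plexus and is also made by neurons, where it is known for its part in appetite and mood. The brightest of its 3 probes read an intensity of 2491 in Il18+/+ and 1558 in Il18-/-, levels of 1.84 and 1.13. That is a difference of -0.71 ± 0.20. A second, dimmer probe read 80.3 and 39.9, a difference of -1.04 ± 0.27. The third read 12.9 and 6.30 and was not well above background on either array, so it has no difference. Both measured probes were lower in Il18-/-, and the standard deviation between them was 0.23. Their mean difference was -0.87, and 0.686% of all measured genes were lower than that. In the neighbourhood of the measured Htr2c spots on the glass, the median difference of the 18 nearest spots was 0.00 for the bright probe and 0.05 for the dim one.

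Since Htr2c is a gene of the choroid plexus, its value stands beside those of 20 other genes of that tissue, which secretes cerebrospinal fluid. All 20 were measured, and 20 of 20 were at least 1.5-fold lower in Il18-/-, with differences from -1.65 for the tight junction gene Cldn2 to -0.86 for Tmem72. The sum of their signals, in multiples of the 75th percentile of the array, was 403.4 in Il18+/+ and 201.4 in Il18-/-, most of it from Ttr, the gene of the thyroxine carrier transthyretin. Each of the 20 had at least 1 probe well above background on both arrays. Spots of Clic6, Folr1, Otx2 and Tmem72 had at least 2 neighbours on the glass that were 2-fold lower or more. The list median was -1.18, and -1.25 without such clustered spots. The difference of Htr2c, at -0.87 as the mean of its 2 measured probes, was close to the smallest in that list. Its bright probe alone, at -0.71, differed less than any of the 20 genes. The list was chosen with its lower values already known, and its part in the Htr2c difference was not tested.

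Htr2a encodes the other Gq-coupled member, found mainly on cortical pyramidal cells and known as the receptor through which psychedelic drugs act. Its single probe read an intensity of 229.5 in Il18+/+ and 179.9 in Il18-/-, levels of -1.60 and -1.98. The difference was -0.38 ± 0.21, or 1.30-fold lower. Of all measured genes, 6.86% were lower still.

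Among the Gi/o-coupled members, Htr1a encodes an inhibitory receptor of hippocampal pyramidal cells and the autoreceptor of raphe neurons. Its probe read an intensity of 165.3 in Il18+/+ and 124.3 in Il18-/-. The levels were -2.07 and -2.51, a difference of -0.44 ± 0.21, so that the Il18-/- pool read 1.36-fold lower and 5.10% of all measured genes were lower still. Htr1f encodes a related inhibitory receptor known as a target of migraine drugs. It went from 141.2 in Il18+/+ to 94.8 in Il18-/-, or from a level of -2.30 to -2.90. The difference of -0.61 ± 0.21 passed 1.5-fold by a narrow margin. Of the 6 alternative settings that could move it, 5 brought it under 1.5-fold, and the spike-in scaling gave -0.92. Quantile, median and loess normalization gave -0.57, -0.55 and -0.52. No background correction gave -0.38, and normexp on the median signal, with an offset of 50 added, gave -0.32. Htr1a ranged from -0.75 to -0.27 over the alternatives, and Htr2a from -0.69 to -0.32.

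Htr1b, the gene of the receptor that limits serotonin release from axon terminals, read 15.6 ± 4.18 in Il18+/+ and 17.0 ± 4.51 in Il18-/-. Htr5a, the gene of a further inhibitory receptor, read 15.5 ± 3.93 and 6.35 ± 4.06. Neither was well above background on either array, and no fold is given for them. The spot of Htr5a was also 1 of 3 spots of members, none of them measured, that were flagged as clustered on the glass. Such a spot differed by 1.5-fold or more, and at least 2 of its 18 nearest spots differed the same way by 2-fold or more. The other 2 were the dimmest probes of Htr2c and Htr4. The measured spot of Htr1a had 3 such neighbours and was not flagged, since its own difference was under 1.5-fold.

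Htr5b encodes a receptor that works in rodents, is made in the hippocampus and the habenula, and whose coupling is less well known. Its probe read an intensity of 304.5 in Il18+/+ and 334.3 in Il18-/-, levels of -1.19 and -1.09. The difference of 0.10 ± 0.21 was smaller than the scanner software's error, and it was -0.21 under the spike-in scaling. Of 14 genes of the medial habenula, a small nucleus above the thalamus that sends cholinergic fibres to the midbrain, 11 were measured. In Il18-/- 8 of these were higher by 1.5-fold or more and 1, the receptor subunit gene Chrna5, was lower by as much, with a median of 1.14 and summed signals of 3.69 and 10.2 times the 75th percentile. Chrnb3 was not well above background on either array, and Chrna3 and Gpr151 were well above it in Il18-/- only, by at least 2.27-fold and 5.40-fold. The spots of Gpr151 and Pou4f1 had at least 2 neighbours on the glass that were 2-fold higher or more. Without such clustered spots the list median was 1.21. Htr5b did not show a difference of that size, and the part of these cells in its value was not tested.

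Of the Gs-coupled members, Htr4, whose receptor favours release of acetylcholine and memory formation, read an intensity of 727.5 in Il18+/+ and 785.6 in Il18-/- with its measured probe. The difference was 0.08 ± 0.20. Its second probe read 15.7 and 6.55, not well above background on either array, and with that probe averaged in, without a filter on dim probes, Htr4 turned to -0.60. Htr7, whose receptor is found in hippocampus and thalamus and shifts the circadian clock, read 705.4 in Il18+/+ and 747.3 in Il18-/-, a difference of 0.05 ± 0.20. Htr6, whose receptor is most abundant in the striatum, read 42.2 in Il18+/+ and 40.1 in Il18-/-, a difference of -0.10 ± 0.29. For each of the 3 genes the difference as first given was smaller than the scanner software's error. Under the spike-in scaling the differences were -0.23 for Htr4, -0.26 for Htr7 and -0.41 for Htr6. Htr6 turned to 0.03 under loess normalization and Htr7 to -0.01 with normexp on the median signal.

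**Figure D2:**
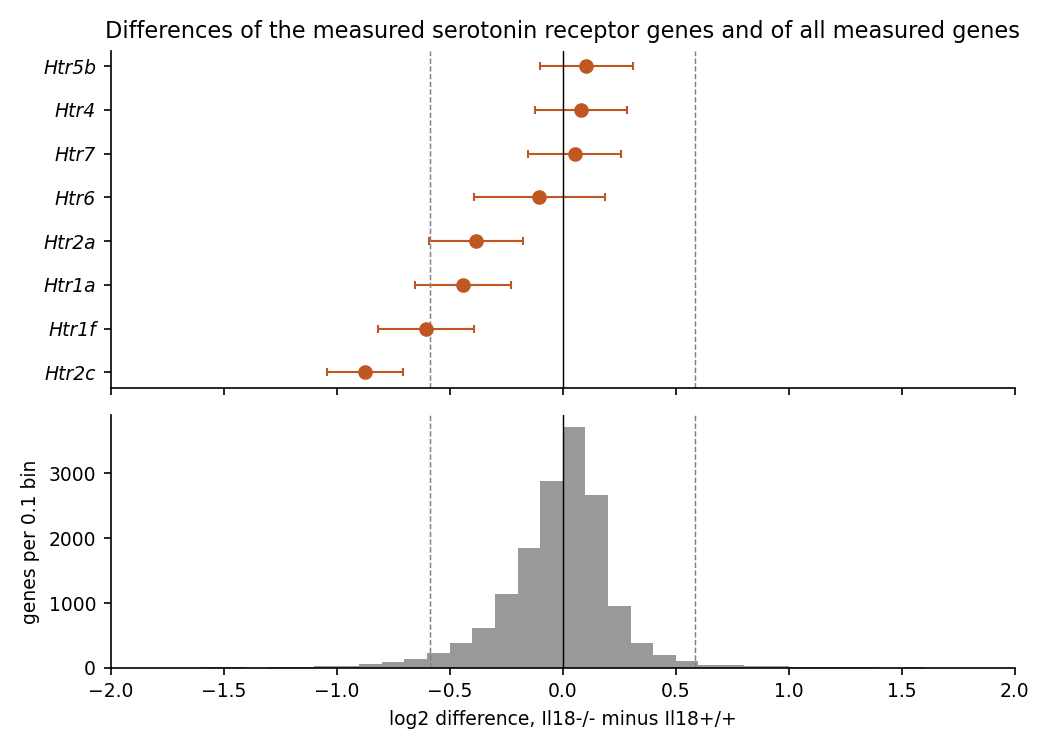
The upper panel gives the log2 difference (Il18-/- minus Il18+/+) of the 8 measured serotonin receptor genes, with bars for the scanner software's error, and the lower panel counts all measured genes between -2 and 2 in bins of 0.1. Dashed lines mark 1.5-fold. Htr2c at -0.87 and Htr1f at -0.61 lie beyond the lower line, and Htr5b, Htr4, Htr7 and Htr6 have bars that cross 0.

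The promoters of the 4 members with the lowest differences are shown so that they can be compared, since these genes were lower in the same pool. They are RefSeq sequences of GRCm38.p6, read 5′ to 3′ on the gene's strand and ending at the base before the annotated start of the gene. Capitals mark the letters of a motif. Searched on both strands were TATAAA, the TATA box, GGGCGG, the GC box bound by Sp factors, CCAAT, the CCAAT box, and CACGTG, the E-box.
Htr2c, chrX:146962263-146962463, plus strand: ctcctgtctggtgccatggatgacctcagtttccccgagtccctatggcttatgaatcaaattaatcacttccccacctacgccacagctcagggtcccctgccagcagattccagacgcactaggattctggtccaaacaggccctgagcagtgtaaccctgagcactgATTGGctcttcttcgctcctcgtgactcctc
Htr1f, chr16:65105785-65106034, minus strand: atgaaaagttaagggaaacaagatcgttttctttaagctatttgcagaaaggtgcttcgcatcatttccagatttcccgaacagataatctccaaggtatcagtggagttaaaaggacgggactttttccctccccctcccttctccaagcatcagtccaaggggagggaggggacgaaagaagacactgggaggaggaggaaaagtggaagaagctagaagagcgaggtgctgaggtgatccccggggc
Htr1a, chr13:105443443-105443692, plus strand: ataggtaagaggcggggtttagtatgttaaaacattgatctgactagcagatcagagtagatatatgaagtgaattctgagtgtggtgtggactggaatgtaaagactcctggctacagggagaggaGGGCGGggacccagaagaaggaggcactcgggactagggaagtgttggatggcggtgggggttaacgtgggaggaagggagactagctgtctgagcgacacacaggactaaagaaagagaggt
Htr2a, chr14:74640624-74640873, plus strand: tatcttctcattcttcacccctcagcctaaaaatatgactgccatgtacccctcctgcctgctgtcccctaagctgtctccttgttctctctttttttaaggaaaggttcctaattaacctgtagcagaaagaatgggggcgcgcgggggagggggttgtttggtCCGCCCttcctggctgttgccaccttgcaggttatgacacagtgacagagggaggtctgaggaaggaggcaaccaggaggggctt

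The Htr2c window holds 1 CCAAT box on the reverse strand, which begins 31 bases before the annotated start. Htr1a and Htr2a each hold 1 GC box, at 123 and 85 bases before the start and on opposite strands, and the Htr1f window holds none of the 4 motifs. Promoter sequences of 8 of the 10 members were found, all but those of Htr4 and Htr5b. The motif counts below use windows of 250 bases before the start in the promoter table, which for Htr2c lies downstream of the annotated start of the gene, so that its window reaches past the stretch shown. Over these windows a GC box was in 3 of the 8 genes, a CCAAT box in 2, and a TATA box and an E-box in 0 each. Of all 32851 promoter windows of that length, 32.7% held a GC box, 33.8% a CCAAT box, 12.4% a TATA box and 6.02% an E-box. No motif was shared by all 4 of the promoters shown, and a match describes letters, not binding.

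Serotonin is made from tryptophan by Tph1 or Tph2 and Ddc, taken up by Slc6a4, packed into vesicles by Slc18a2 and broken down by Maoa and Maob. Of 16 genes for synthesis, its cofactor tetrahydrobiopterin, transport and breakdown, 12 were measured, with 8 higher, 4 lower and a median of 0.11, which was -0.20 under the spike-in scaling. Tph2, the enzyme of serotonergic neurons, read an intensity of 9.12 in Il18+/+ and 10.7 in Il18-/-, and the serotonin transporter gene Slc6a4 read 8.67 and 4.11. Both genes, which define serotonergic cell bodies, were not well above background on either array. Slc18a2 was 1.27-fold higher in Il18-/- and Maoa was 1.27-fold higher, while Maob differed by -0.12.

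Past 1.5-fold in this group were Tph1, Pts and Fev. Pts, which encodes an enzyme of cofactor synthesis and lies near Il18, was 2.09-fold lower. Fev, a transcription factor gene of serotonergic neurons, went from an intensity of 87.8 to 53.6, or 1.67-fold lower, and it passed 1.5-fold in 4 of the 6 settings that could move its value. Tph1, the enzyme of peripheral tissues and the pineal gland, went from a dim 23.8 to 40.6, or 1.67-fold higher, on a spot with at least 2 neighbours on the glass that were also 2-fold higher or more. It was past 1.5-fold in 3 of the 6 settings that moved its value, and the 2 settings without its spot gave none.

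Of the receptor genes outside the 10, Htr3a read an intensity of 235.9 in Il18+/+ and 112.3 in Il18-/-, 2.15-fold lower, and lies near Il18. Htr1d was dim on both arrays, at 20.6 and 23.6, with a difference of 0.16 ± 0.40. Htr2b was well above background in Il18-/- only, by at least 1.19-fold, and Htr3b on neither array.

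Genes that carry the receptors' signal differed little. Among 12 genes for Gi/o proteins, their potassium channels and regulators, all 12 were measured and 0 reached 1.5-fold, with a median of -0.05. The lowest was Kcnj3, a subunit of the channel that Htr1a receptors open, at -0.54, with probes at -0.55 and -0.52, and the highest was Rgs14, a regulator abundant in field CA2, at 0.20. Of 12 genes for Gq signalling 11 were measured and 0 reached 1.5-fold, with a median of 0.02. Plcb4, a phospholipase C gene, was the lowest at -0.51, and Prkca, a protein kinase C gene, was the highest at 0.17. All 19 genes for Gs and cyclic AMP signalling were measured, and 0 reached 1.5-fold, with a median of -0.01 and values from -0.29 for Pde4b to 0.19 for Prkacb. Probes of Pde4b, a phosphodiesterase gene, differed in sign, from -0.81 to 0.16. The medians of the 3 groups lay within 0.1 of 0 in the 11 other settings and were -0.36, -0.29 and -0.33 under the spike-in scaling.

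Among 15 genes for partners and regulators of the receptors, all measured, 1 reached 1.5-fold. This was Adarb2, a brain relative of the enzymes that edit Htr2c transcripts, at an intensity of 54.0 in Il18+/+ and 33.3 in Il18-/-, or 1.65-fold lower, and it passed 1.5-fold in 4 of the 6 settings that could move its value. The editing enzymes themselves, Adar and Adarb1, differed by -0.01 and 0.08. Dlg4, the gene of a postsynaptic scaffold that binds Htr2a and Htr2c receptors, was the highest at 0.32, and Mpdz, the gene of another scaffold bound by the Htr2c receptor, differed by -0.44.

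**Figure D3:**
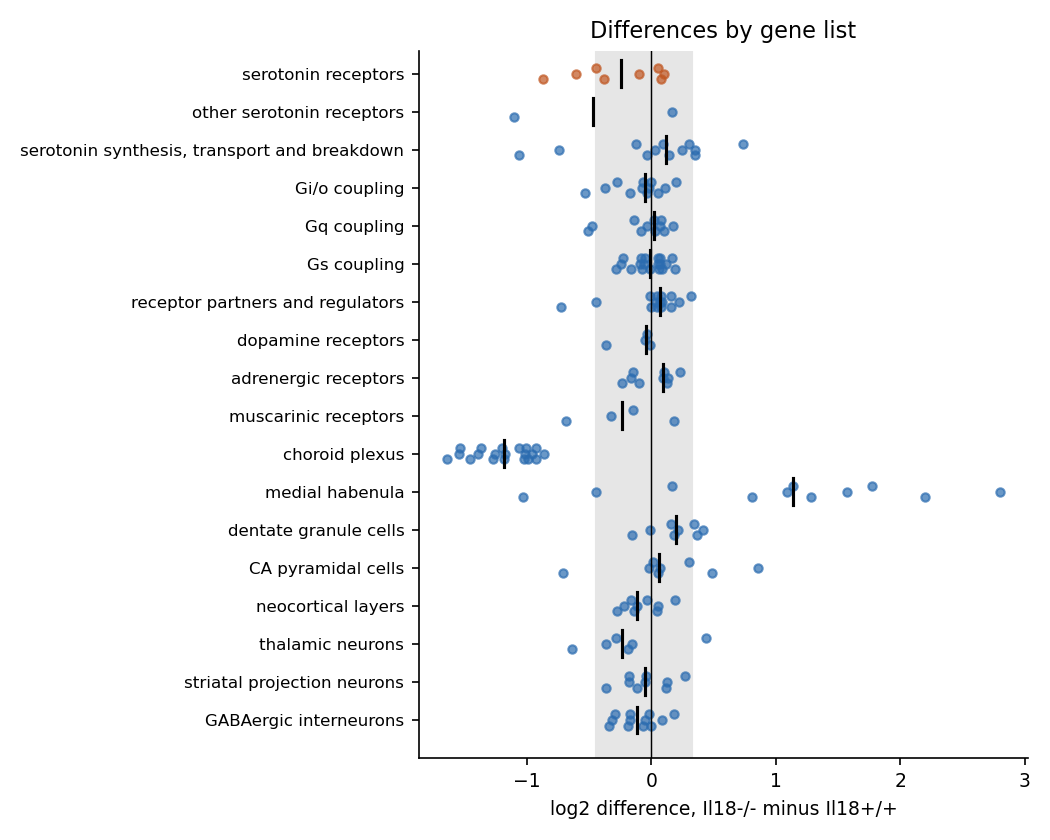
Each point is a measured gene, placed by its log2 difference (Il18-/- minus Il18+/+), for the serotonin receptors in orange and the other lists except liver in blue, with black bars for list medians and a grey band from the 5th to the 95th percentile of all measured genes. The receptors spread from -0.87 to 0.10, the choroid plexus genes lie wholly below -0.8, and the signalling lists cluster around 0.

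Other receptors for modulatory transmitters give a scale for these values. Of 5 dopamine receptor genes 4 were measured, with differences from -0.37 for Drd2 to -0.01 for Drd4 and none at 1.5-fold. The 9 adrenergic receptor genes were all measured, the lowest being Adra1d at -0.24, and none reached 1.5-fold. Of 5 muscarinic acetylcholine receptor genes 4 were measured, with a median of -0.24, the same as that of the serotonin receptors, and Chrm2 was 1.61-fold lower, a value that passed 1.5-fold in 3 of the 6 settings that could move it. How the families differ from each other was not tested, for want of replicate pools.

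Markers of the cells that carry these receptors were read from the same arrays. Pyramidal cell genes of the hippocampus had a median of 0.06 and dentate granule cell genes one of 0.20, which were -0.25 and -0.12 under the spike-in scaling. Past 1.5-fold among the pyramidal cell genes were Man1a, lower at -0.71, and Iyd, higher at 0.86 with dim intensities of 16.4 in Il18+/+ and 30.4 in Il18-/-. Genes of neocortical layers had a median of -0.11, GABAergic interneuron genes one of -0.12, with 10 of 12 lower, and thalamic genes one of -0.24, with 5 of 6 lower. Among the thalamic genes, Tnnt1 was past 1.5-fold at -0.64, while Prkcd was higher at 0.44. Striatal projection neuron genes had a median of -0.05. With the spike-in scaling these 4 medians were -0.43, -0.43, -0.55 and -0.37. The neocortical one was 0.00 under loess normalization and the striatal one 0.00 under median scaling. Signals summed over each list were 53.4 in Il18+/+ and 61.4 in Il18-/- for pyramidal cells, 18.2 and 23.1 for granule cells, 15.5 and 16.8 for neocortical layers (5.69 and 5.36 without Tbr1), 328.5 and 342.5 for interneurons (119.0 and 104.6 without Cck, the peptide gene that carries most of it), 8.28 and 7.85 for the thalamus and 25.9 and 26.4 for the striatum. Liver genes were also read, and 9 of 10 were at least 1.5-fold higher in Il18-/-, all but Ttr. The median over the 10 was 2.92, and the highest was Alb, at 12.5-fold. The part of these cells in the lower values of Htr1a, Htr1f and Htr2a was not tested.

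**Figure D4:**
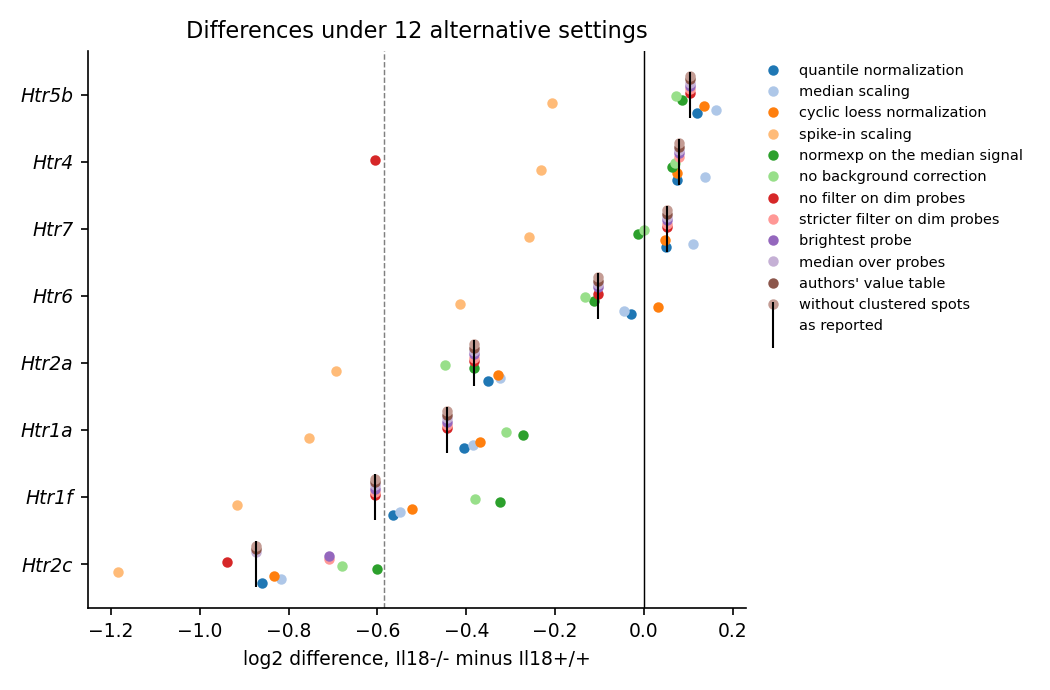
Log2 difference (Il18-/- minus Il18+/+) of the 8 measured serotonin receptor genes under 12 alternative settings, 1 coloured point each, with a black bar for the value reported above and a dashed line at 1.5-fold lower. Htr2c stays beyond the line in all 9 settings that move its value, from -1.18 to -0.60, the latter by a narrow margin. Htr1f crosses the line, and Htr4, Htr5b, Htr6 and Htr7 cross 0.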

How the data were processed

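RNA of 7 mice per genotype was pooled, labelled with Cy3 and read on 1 Agilent array each. Per the submitters' processing notes, Agilent Feature Extraction 10.10.1.1 made the deposited intensity values. Per the file headers, these were background-subtracted and detrended within each array, not scaled between arrays. The value table that the authors deposited is this intensity multiplied by 2.05 (Il18+/+) and 1.92 (Il18-/-), with column medians of 151.5 and 139.5, on a linear scale without centring. What set these constants stays unknown.

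Of 62976 spots, 3671 controls and the 124 (Il18+/+) and 177 (Il18-/-) outlier flags were left out, and 0 of the others were saturated. Levels are log2 processed intensity minus that of the array's 75th percentile, 694.8 and 709.9. Of 55681 probes, 27235 were named, by matching unversioned accessions to RefSeq (GRCm38.p6). A gene's difference is the mean over its measured probes, and a bound for a gene above background on 1 array only takes as the dim side its own signal or the lowest signal well above background, whichever was higher. Members, lists and rules were chosen with earlier results of these data known. The rule named all 10 members and, for the lists of pathway and receptor genes, those at 1.5-fold or otherwise the highest and lowest. It did not cover the cell marker lists, and further genes were named after their values were seen. Promoters were shown for members under which fewer than 10% of all genes lay, also chosen after the values were seen, and protein sequences were not used here.

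A self-test of this comparison ran on simulated data of 16143 genes. All changed genes (100% at 2-fold and 100% at 3-fold) and 0% of the unchanged ones reached 1.5-fold. The Il18-/- array was simulated from the Il18+/+ array, with the same background calls and equally small noise at all levels. Neither the wider spread of dim probes nor a spread between pools was simulated. The self-test therefore checks the computing and gives no error rate for the calls on the real arrays. Alternatives were 12 other choices of scaling, background, filter and probe. Normexp added an offset of 50 to the signal, and the setting with no background correction left the background in it. By construction, both tend to shrink the differences of dim probes. Tools were R 4.3.3 with limma 3.58.1, and Python 3.11.15 with pandas 2.3.3, numpy 2.4.6, matplotlib 3.10.9 and scipy 1.17.1.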

Additional observations from a re-analysis of the deposited data

How the results depend on the processing

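Htr2c was at least 1.5-fold lower in all 9 of the 12 alternatives that moved its value, with differences from -1.18 to -0.60. The smallest of these, with normexp on the median signal, was 1.52-fold and passed by a narrow margin. Members with 1 probe were given another value only by the 6 alternatives of scaling and background. The count of members at 1.5-fold or more lower, 2 as reported, was 1 (Htr2c) with quantile, median and loess normalization, with normexp on the median signal and with no background correction. It was 4 with the spike-in scaling, which adds Htr1a and Htr2a, and 4 with no filter on dim probes, which adds Htr4 and Htr5a through probes not well above background. Their median difference of -0.24 was -0.15 with loess, -0.55 with the spike-in scaling, -0.41 with no filter and -0.38 with a stricter filter, which leaves out Htr6. Over all genes, 405 lower and 264 higher became 1841 and 127 with the spike-in scaling, 107 and 114 with normexp, 147 and 132 with no background correction, 1356 and 814 with no filter, and 184 and 132 with a stricter filter. The lower share of these calls, 60.5% as reported, was 51.0% with quantile, 49.8% with median and 44.4% with loess normalization, 48.4% with normexp and 93.5% with the spike-in scaling. Beyond what these settings do by construction, the cause was not tested. No paired analysis was possible because each genotype had 1 pool. Signal over background limits Htr1b and Htr5a, which gave no difference.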
